A study of Mus musculus with 2 samples.

Results

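The cells described here, selected on their own transcript counts, are 647 fibroblasts of a bleomycin-treated mouse lung library that carried Cthrc1, a secreted glycoprotein of scar-forming fibroblasts, together with little Spp1, the gene of osteopontin. They were taken from 4473 barcodes of that library, and from 9928 barcodes in the bleomycin and saline libraries together. A barcode had to show at least 500 genes and at most 10% mitochondrial counts, and at least 20 transcripts of Col1a1, Col1a2, Col3a1, Dcn and Pdgfra in every 10,000. It also had to lack Ptprc, Pecam1 and Epcam, genes of blood, endothelial and epithelial cells. The 3561 bleomycin barcodes that passed are called gated fibroblasts. Of these, 1243 had at least 2 Cthrc1 transcripts. Cells with 4 or more transcripts of Mki67, Top2a, Cdk1, Ube2c and Birc5 in sum were set aside as cycling (167 cells), then those with a transcript of Msln, a mesothelial gene, as Msln-positive (145 cells). The remainder was divided at 10 Spp1 transcripts per 10,000, which gave 647 Spp1-low and 284 Spp1-high cells. The Spp1-low cells were 18.2% of the gated fibroblasts (95% Clopper-Pearson interval 16.9 to 19.5%) and 52.1% of those with Cthrc1. Gated bleomycin fibroblasts without a Cthrc1 transcript (1805 cells) are called Cthrc1-negative, whatever their Spp1, Msln or cycling transcripts. The 513 gated cells with exactly 1 Cthrc1 transcript are in none of these groups.

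Both libraries were made from lung cells of mice aged 8 to 10 weeks that carried Lepr-Cre and a Rosa26-tdTomato reporter, after bleomycin, a DNA-damaging drug that scars the rodent lung, or after saline. In such mice Cre is driven by the leptin receptor gene and turns the red label on for good, so label marks past as well as present activity of that gene. Live labelled cells were sorted, and transcripts were counted with unique molecular identifiers (UMIs) in 1 library per treatment. No dose, day of collection or count of mice per library stands in the sources used here, and sort purity was not tested. Every group other than the saline fibroblasts is a part of the bleomycin library and shares its animals, sort and capture. The saline library had 3567 gated fibroblasts, of which 6 had at least 2 Cthrc1 UMIs and 3 met the whole rule (0.0841%, interval 0.0173 to 0.246%).

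Fibroblasts that carry Cthrc1 appear in injured lung and are known as strong producers of fibrillar collagen and of the provisional matrix around it. Osteopontin is a secreted phosphoprotein that binds integrins and CD44, and is made by several cell types of scarred tissue, macrophages among them. Lung fibroblasts otherwise fall into alveolar cells, which express Npnt, Tcf21 and Inmt, and adventitial cells around vessels and airways, which express Pi16, Clec3b and Ly6c1.

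Levels are given as summed UMIs of a gene per 10,000 UMIs of a group, with exact Poisson intervals at 95%. These intervals cover counting error only, and cells differed from each other by far more than that. With 1 library per treatment there is no test, and cells are not replicates. A gene is called higher or lower only past a rule of size: at least 50 UMIs and 0.2 per 10,000 in the higher group, and a 1.5-fold difference within the bleomycin library or a 2-fold difference against saline. Between libraries, treatment and library cannot be told apart. Depth differed, with a median of 15027 UMIs in Spp1-low cells, 15785 in Spp1-high, 19027 in Msln-positive, 24845 in cycling and 11343 in Cthrc1-negative cells, and 6785 in saline fibroblasts. The libraries shared 33 barcodes, 10 of them Spp1-low cells. Without those 10, the levels of the marker genes were nearly as before, with Eln at 58.4 in place of 57.9 and Ctla2a at 11.8 in place of 11.9.

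Cthrc1 and Spp1 chose the cells, so their levels are a description. Cthrc1 ranged between 0.705 and 85.1 per 10,000 over the Spp1-low cells, with a median of 5.96, and 104 cells had just the 2 UMIs required. Of endothelial cells of the same library, 5.98% also had 2 or more Cthrc1 UMIs (11 of 184, at a median of 7545 UMIs), and of macrophages 0.366% (1 of 273). Summed Cthrc1 was 11.5 in Spp1-low cells, against 6.05 in Spp1-high, 5.68 in Msln-positive and 9.39 in cycling cells. It was 0.0219 in saline fibroblasts and 0.299 in endothelial cells. The cells with little osteopontin thus had the highest summed Cthrc1 of the groups, while the ranges of single cells overlapped widely.

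Spp1 was 2.44 per 10,000 in Spp1-low cells and 178 in Spp1-high cells. Single Spp1-low cells lay between 0 and 9.76, with a median of 1.89, and 49 of them had no Spp1 UMI. Endothelial cells of the library, which are not known for osteopontin, had 1.89 per 10,000 in sum and a median of 1.54, and 4 of 184 reached 10. Macrophages had 29.2. After every cell was thinned to 5000 UMIs, 60.03% of Spp1-low cells (56.1 to 63.9%) had an Spp1 UMI and 58.6% of endothelial cells (50.6 to 66.3%) did, against 1.03% of saline fibroblasts. The share in Spp1-low cells was thus close to that of a lineage not known for the gene. The rule limited Spp1 in Spp1-low cells and not in endothelial cells. An Spp1 UMI in an Spp1-low cell is by itself read neither as expression nor as its absence, and the source of these UMIs was not tested. The level had no gap at the limit: 34 cells lay at 7 to 10 per 10,000 and 36 at 10 to 14. Between those 2 sets, Serpine2 was 11.3 just inside the limit and 20.5 just outside, Cthrc1 was 15.8 and 7.19, and Eln was 57.9 and 70.6.

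**Figure D1:**
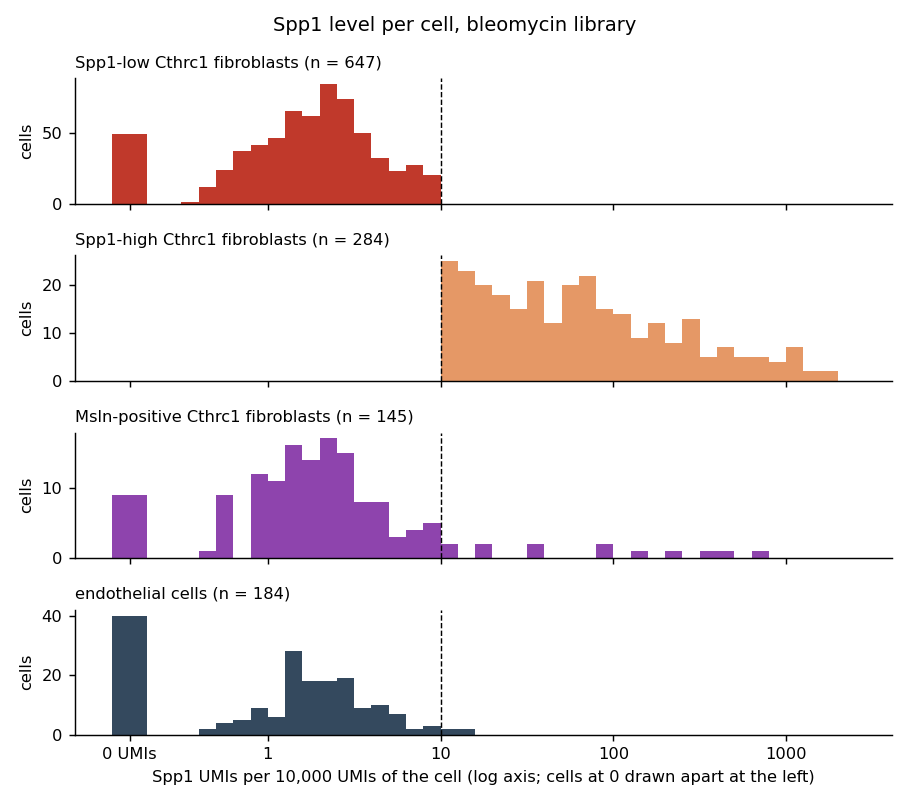
Spp1 level of single cells of the bleomycin library (horizontal, UMIs per 10,000 on a log axis, cells at 0 apart at the left) against the number of cells in each bin, with the limit at 10 as a dashed line. Spp1-low and endothelial cells fill the same range around 2, and Spp1-high cells spread without a break from 10 to 1866.

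A set of 5 genes was proposed as marks of these cells: Cthrc1, Eln (tropoelastin, the elastic fibre protein), Ptn (pleiotrophin, a heparin-binding growth factor), Serpina3m (a serine protease inhibitor) and Ctla2a (a cysteine protease inhibitor with a cathepsin propeptide fold). Ptn and Ctla2a passed the rule of size over Spp1-high cells together with Cthrc1, and Eln and Serpina3m did not. That count of 3 of 5 stands beside 1.46% of all 9217 genes measured in that comparison (2.93% in either direction), but the proposal was made on these cells and Cthrc1 is part of the rule. All 5 were higher than in saline fibroblasts, where the share over all genes was 3.44%. On GRCm38, Cthrc1 lies at chr15:39076932-39087121, Eln at chr5:134702593-134747323, Ptn at chr6:36714929-36810220, Serpina3m at chr12:104338486-104394257 and Ctla2a at chr13:60934155-60936625, all annotated as protein-coding.

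Ptn was 4.12 per 10,000 (interval 3.99 to 4.24) in Spp1-low cells, 2.62 (2.47 to 2.77) in Spp1-high, 5.54 in Msln-positive, 3.73 in cycling and 1.56 in Cthrc1-negative cells, and 0.0269 in saline fibroblasts. It was thus highest in Msln-positive cells and 1.57-fold higher in Spp1-low than in Spp1-high cells. Over single Spp1-low cells it ranged between 0 and 38.1, with a median of 2.00. After thinning, 56.4% of Spp1-low cells had a Ptn UMI, against 43.8% of Spp1-high cells, 4.94% of endothelial cells and 0.640% of saline fibroblasts.

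Eln was 57.9 per 10,000 (57.4 to 58.4) in Spp1-low cells, 69.1 in Spp1-high, 40.3 in Msln-positive, 27.4 in cycling and 68.8 in Cthrc1-negative cells, and 16.1 in saline fibroblasts. Eln thus did not single out the Spp1-low cells. They stood 3.60-fold over saline fibroblasts, above Msln-positive and cycling cells, and below both the Spp1-high and the Cthrc1-negative cells of their own library. Serpina3m was 0.468 (0.427 to 0.511) in Spp1-low cells, against 0.541 in Spp1-high, 0.296 in Msln-positive and 0.996 in Cthrc1-negative cells, and 0.116 in saline fibroblasts. It was 2.13-fold lower in Spp1-low than in Cthrc1-negative cells, so this gene marked the other side of that divide. Its relative Serpina3n, an acute phase inhibitor, was 4.30 in Spp1-low and 9.95 in Cthrc1-negative cells. None of 451 windows of 50 bases over the last 500 bases of Serpina3m occurred in another listed Serpina3 gene, and the overlapping Serpina3k had no UMI in Spp1-low cells.

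**Figure D2:**
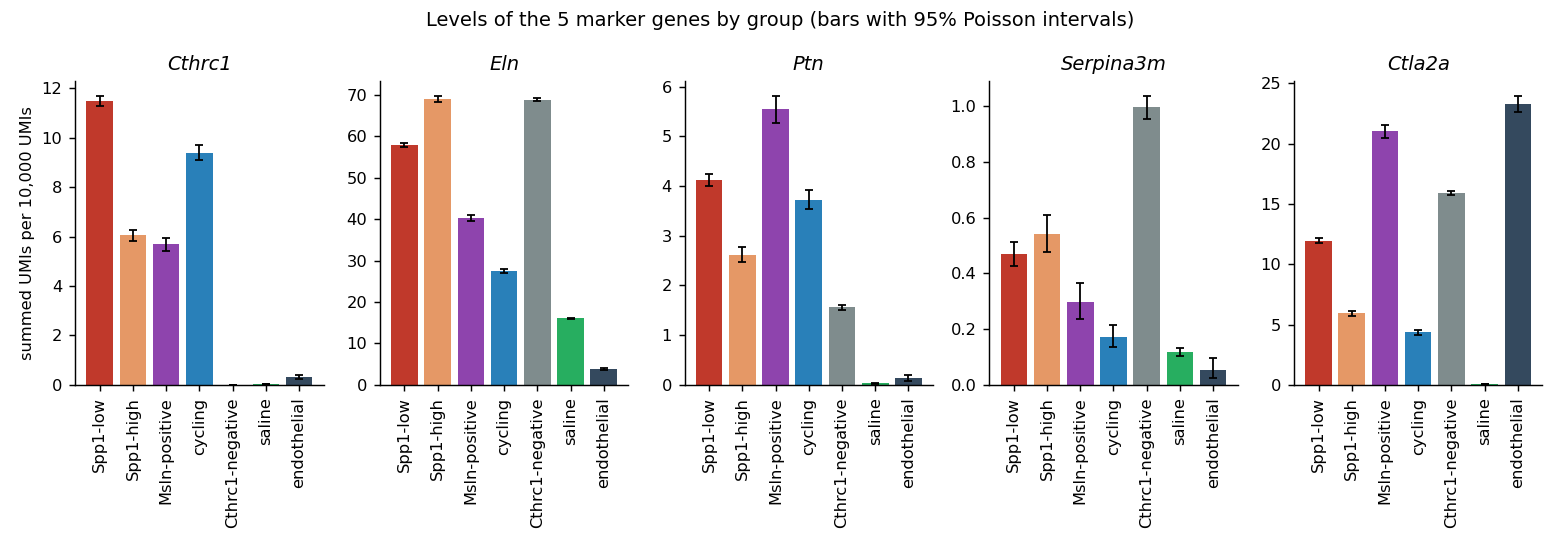
Summed level of the 5 proposed marker genes (vertical, UMIs per 10,000 from 0) in Spp1-low cells, the other groups of the bleomycin library, saline fibroblasts and endothelial cells, with 95% Poisson intervals. Cthrc1 alone is highest in the Spp1-low cells, Eln and Serpina3m stand higher in Cthrc1-negative cells, and Ctla2a is high in Msln-positive and endothelial cells as well.

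Ctla2a behaved unlike the other markers, because few cells held nearly all of it. It was 11.9 per 10,000 (11.7 to 12.1) in Spp1-low cells, 5.92 in Spp1-high, 21.0 in Msln-positive, 4.36 in cycling and 15.9 in Cthrc1-negative cells, and 0.0402 in saline fibroblasts. Over single Spp1-low cells the level ran between 0 and 423 with a median of 0.666, and 230 cells had none. The 94 cells at 10 per 10,000 or more, 14.5% of the group, held 94.5% of its Ctla2a UMIs and stood at 79.4 in sum. The other 553 cells stood at 0.771, below the 0.974 of macrophages in the same library. Endothelial cells, a known site of Ctla2a expression, had 23.3 in the bleomycin and 10.6 in the saline library. Pecam1 was 0 in Spp1-low cells by the rule, and Cdh5, the endothelial cadherin, was 0.00484 there, against 5.58 in endothelial cells. That Cdh5 level is over all Spp1-low cells and not over the 94 alone, and the part of endothelial RNA in Ctla2a was not tested.

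Within the Spp1-low cells, the 94 with much Ctla2a and the 553 with little differed in other genes as well, a division made after the values were seen. Ctla2b, the neighbouring copy of Ctla2a, was 0.648 per 10,000 (0.524 to 0.792) in the first set and 0.0734 (0.0566 to 0.0935) in the second. A Ctla2b UMI was found in 47 of the 94 cells and in 45 of the 553. Eln was 84.2 and 53.6, Mt1 was 50.8 and 29.2, and Cthrc1 was 5.90 and 12.4. Serpine2 was 4.23 and 8.06. The cells rich in Ctla2a thus had more elastin and metallothionein and less Cthrc1. Median depth was 15051 and 15027 UMIs.

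Promoter sequences are shown for Spp1, whose level divides the Cthrc1 cells, and for Ctla2a and its neighbouring copy Ctla2b. They are RefSeq windows on GRCm38.p6, 250 bases before the start of the gene to 50 after it. Capitals mark matches, on either strand and anywhere in the window, to the TATA letters TATAAA, the RUNX motif TGTGGT and the AP-1 motif TGANTCA. The TEAD motif GGAATG was searched for as well. Of 27025 promoter windows of that length, 14.2% held TATAAA, 16.9% the RUNX motif, 7.93% the AP-1 motif and 14.6% the TEAD motif. The Spp1 match to RUNX lies on the other strand. The TATAAA matches of Spp1 and Ctla2a lie nearer the outer end of their windows than the start of the gene.
Spp1, plus strand, chr5:104434861-104435160: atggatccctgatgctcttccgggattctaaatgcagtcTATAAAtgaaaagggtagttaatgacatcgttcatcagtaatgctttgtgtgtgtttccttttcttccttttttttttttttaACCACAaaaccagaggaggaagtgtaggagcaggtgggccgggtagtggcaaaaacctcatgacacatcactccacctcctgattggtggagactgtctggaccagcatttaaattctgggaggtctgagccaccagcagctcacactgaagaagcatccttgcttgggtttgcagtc
Ctla2a, minus strand, chr13:60936576-60936875: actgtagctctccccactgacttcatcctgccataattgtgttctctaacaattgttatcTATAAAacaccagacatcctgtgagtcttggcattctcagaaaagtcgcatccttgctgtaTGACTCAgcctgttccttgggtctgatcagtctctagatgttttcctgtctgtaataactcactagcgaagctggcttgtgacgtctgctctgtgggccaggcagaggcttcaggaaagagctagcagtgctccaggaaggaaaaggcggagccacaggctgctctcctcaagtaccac
Ctla2b, minus strand, chr13:60897398-60897697: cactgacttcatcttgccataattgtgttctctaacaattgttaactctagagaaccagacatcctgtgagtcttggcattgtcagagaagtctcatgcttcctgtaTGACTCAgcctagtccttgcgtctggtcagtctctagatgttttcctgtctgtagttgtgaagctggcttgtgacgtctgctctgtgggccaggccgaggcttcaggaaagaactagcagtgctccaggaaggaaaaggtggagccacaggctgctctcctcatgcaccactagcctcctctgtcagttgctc
The Ctla2a and Ctla2b windows matched at 255 of 278 aligned bases (91.7%), and both held an AP-1 match. No window of 50 bases over the last 500 bases of either transcript occurred in the other. The Ptn window held none of the 4 motifs. Cthrc1, Eln and Serpina3m had no window in the table. A match is a string of letters, and no binding was measured.

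Against Spp1-high cells, 135 of 9217 genes measured (1.46%) were higher in Spp1-low cells and 135 (1.46%) lower, and the median log2 ratio over all of them was 0.00. Genes of adventitial fibroblasts stood out by count. Of 14 measured, 9 were higher and 1 lower, with a median log2 ratio of 1.48. Pi16, a secreted peptidase inhibitor that marks adventitial cells, was 0.435 per 10,000 (0.396 to 0.477) in Spp1-low cells, from 44 cells, and had 1 UMI in 284 Spp1-high cells. Clec3b (tetranectin) was 1.68 (1.60 to 1.76) in Spp1-low and 0.335 (0.285 to 0.391) in Spp1-high cells. Igfbp6, an inhibitor of insulin-like growth factor 2, was 6.95 and 2.33, and Ly6c1, a surface protein, 1.01 and 0.262. Dpep1, a membrane dipeptidase outside that list, was 1.08 and 0.283. The exception was Sfrp1, a Wnt antagonist, at 2.31 in Spp1-low and 4.13 in Spp1-high cells. The adventitial genes thus differed together, and the difference in Pi16 rested on few cells.

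Genes of alveolar fibroblasts did not show it. Of 15 measured, 1 was higher and none lower in Spp1-low than in Spp1-high cells, with a median log2 ratio of 0.05. Npnt (nephronectin) was 0.865 and 1.12, and Tcf21, a fibroblast transcription factor, 0.490 and 0.372. The member past the rule was Wnt2, a Wnt ligand, at 0.265 in Spp1-low and 0.150 in Spp1-high cells. Counted per cell at full depth, some cells had at least 2 UMIs of Pi16 and Clec3b in sum and fewer than 2 of Npnt and Tcf21. They were 15.6% of Spp1-low cells (12.9 to 18.6%), against 2.46% of Spp1-high cells (0.997 to 5.01%). The converse, Npnt and Tcf21 alone, held for 31.1% of Spp1-low and 48.2% of Spp1-high cells. Both pairs were present in 11.6% and 8.10%, and neither in 41.7% and 41.2%.

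The scar matrix was shared in large part, with a subset of genes higher in Spp1-low cells. Col1a1 was 90.3 per 10,000 in Spp1-low and 73.1 in Spp1-high cells, and Fn1 (fibronectin) 31.8 and 30.0, neither past the rule. Of 16 fibrillar and associated collagens, 3 were higher and none lower: Col11a1 at 0.643 and 0.185, Col5a3 at 1.08 and 0.651, and Col14a1 at 0.420 and 0.131. In the group of 21 matricellular and scar matrix genes measured, 6 were higher and 4 lower. Postn (periostin, which helps collagen cross-linking) was 9.99 (9.79 to 10.2) and 5.26 (5.05 to 5.46), Thbs2 (thrombospondin 2) 0.970 and 0.410, and Tnn (tenascin W) 0.806 and 0.347. Loxl2, a collagen and elastin cross-linking enzyme, was 3.20 and 1.64. A separate list of 16 collagen processing enzymes had none past the rule, and of 22 elastic fibre genes measured 2 were higher and none lower. The 4 lower matricellular and scar matrix genes were Spp1 itself, which the rule used, Sparcl1, Mgp (matrix Gla protein, an inhibitor of calcification) at 235 and 405, and Thbs4 at 0.778 and 1.40. Periostin, thrombospondin 2 and tenascin W were thus higher in the Spp1-low group and thrombospondin 4 in the Spp1-high group. Cthrc1 was also higher in the Spp1-low group, and within it Postn and Thbs2 were higher where Cthrc1 was higher, as given below. The groups were not compared at like Cthrc1, so low Spp1 and high Cthrc1 cannot be told apart here.

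Of 25 proteases and inhibitors measured, 2 were higher and 2 lower in Spp1-low than in Spp1-high cells. Serpine2, an inhibitor of thrombin and plasminogen activators, was 7.51 (7.35 to 7.68) in Spp1-low and 26.5 (26.0 to 26.9) in Spp1-high cells, 3.52-fold lower. Tnfrsf11b (osteoprotegerin, the RANKL decoy receptor) was 0.0804 and 0.491, and Timp1, a metalloproteinase inhibitor, 11.2 and 18.7. Chodl, a membrane lectin, was 0.0136 and 0.250, and 1 cell held 27.5% of its Spp1-high UMIs. For Serpine2, the top cell held 3.56% of the UMIs of Spp1-low and 2.98% of those of Spp1-high cells, and the median over cells was 3.21 and 14.1 per 10,000.

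Of 24 genes of the TGF-beta system, 2 were higher and 3 lower. The ligand Tgfb2 was 0.768 in Spp1-low and 0.470 in Spp1-high cells, whereas the ligand Tgfb1 was 0.878 and 1.45, the activin subunit Inhba 0.518 and 0.857 and the activin antagonist Fst 3.55 and 6.79. Of 15 Wnt genes measured, 1 was higher and 5 lower, among them the receptor Fzd1 at 1.31 and 2.19 and the antagonists Frzb at 0.0910 and 0.283 and Dkk2 at 0.107 and 0.221. Of 7 antigen presentation genes measured, 3 were lower and none higher: H2-K1 at 0.982 and 1.95, H2-D1 at 2.37 and 3.76, and the immunoproteasome subunit Psmb8 at 0.273 and 0.595. Contractile genes hardly differed, with 1 of 21 past the rule (Cnn1, calponin, at 0.297 and 0.104), and Acta2 at 21.7 and 17.4. None of 20 respiratory chain genes and none of 26 genes of endoplasmic reticulum chaperones and secretion passed the rule.

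**Figure D3:**
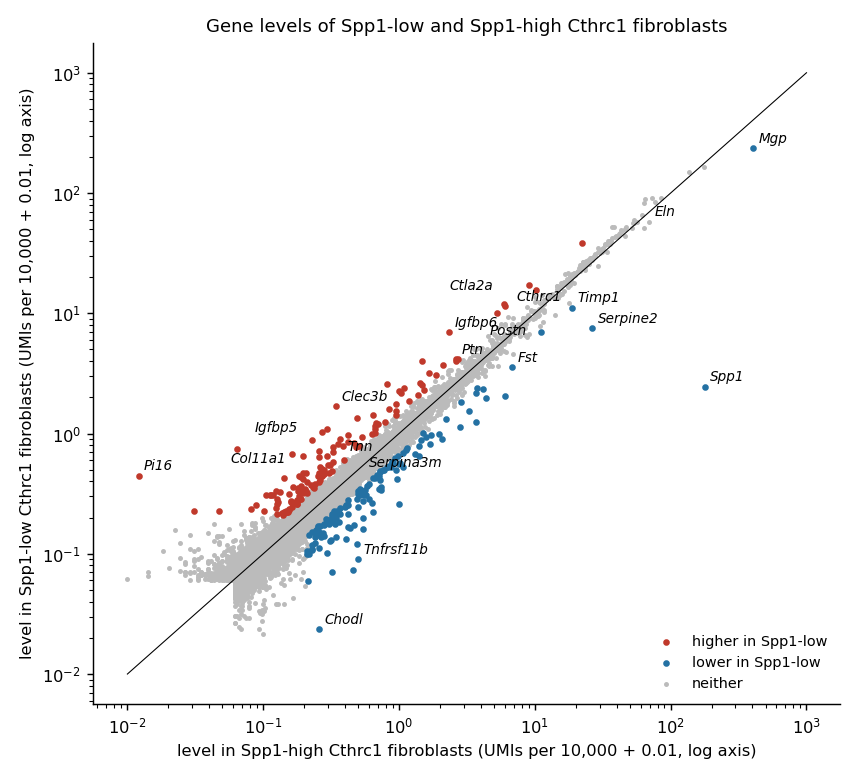
Level of each measured gene in Spp1-low cells (vertical) against Spp1-high cells (horizontal), both in UMIs per 10,000 plus 0.01 on log axes, with equal levels on the line. Red genes are higher and blue genes lower in Spp1-low cells. Pi16, Clec3b and Igfbp6 lie above the line, and Serpine2, Mgp and Timp1 below it.

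Along the Spp1 level, the 931 Spp1-low and Spp1-high cells were put in 7 bins of 49, 115, 315, 168, 98, 93 and 93 cells. Serpine2 was 8.88, 7.28, 6.07 and 10.2 in the 4 bins below the limit and 15.2, 21.4 and 42.9 in the 3 above it. Clec3b was 2.27, 2.21, 1.88 and 0.812 below and 0.453, 0.294 and 0.245 above. Pi16 was 0.855, 0.390, 0.562 and 0.137 below the limit, had 1 UMI in the first bin above it and none in the last 2. Clec3b and Pi16 were thus already lower in the bin at 3 to 10 Spp1 per 10,000 than in the one at 1 to 3, inside the Spp1-low cells, and Serpine2 was higher in each bin from 3 upwards. Postn was between 8.80 and 11.03 below the limit and 6.15, 5.41 and 4.16 above it. Eln followed no such order, at 60.1, 63.3, 58.9 and 51.8 below the limit and 69.4, 75.6 and 63.2 above it. The cells without Spp1 were shallower, with a median of 10730 UMIs against 14023 to 16426 in the other bins.

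**Figure D4:**
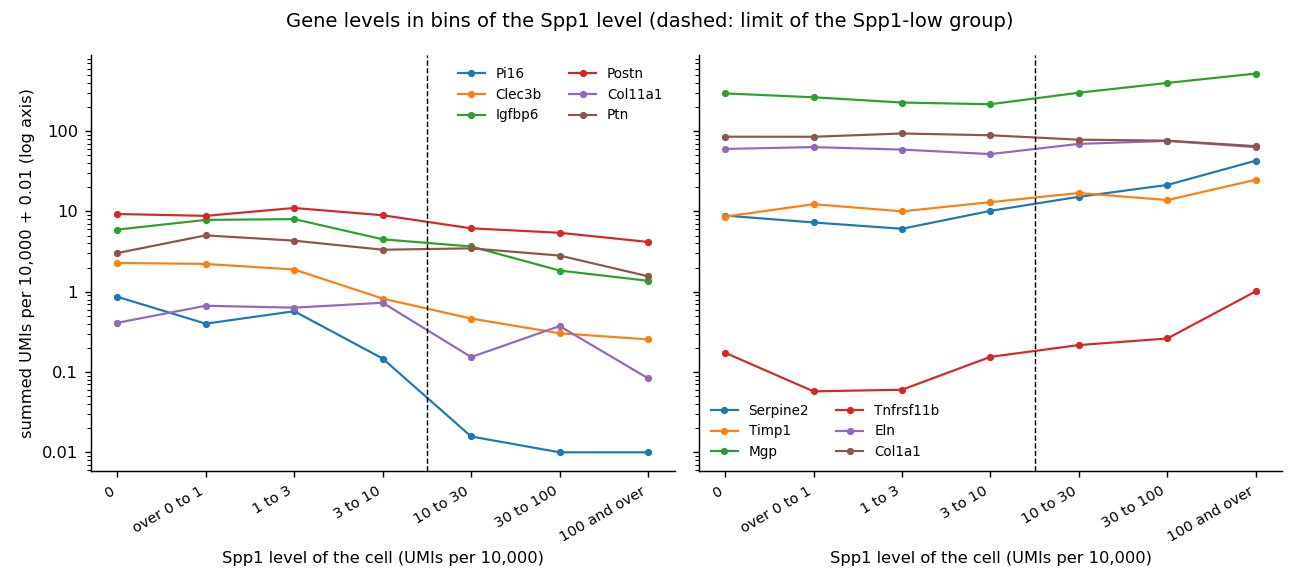
Summed level of 12 genes (vertical, UMIs per 10,000 plus 0.01, log axis) in 7 bins of the Spp1 level of the cell (horizontal), with the limit of the Spp1-low cells as a dashed line. Pi16, Clec3b and Igfbp6 (left) decline towards high Spp1, whereas Serpine2, Mgp and Tnfrsf11b (right) are highest in the last bin.

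Against Cthrc1-negative fibroblasts of the same library (1805 cells), 225 of 11005 genes measured (2.04%) were higher in Spp1-low cells and 481 (4.37%) lower, which is 6.42% in all, with a median log2 ratio of -0.11 over all genes. Unlike the Spp1-low cells, the Cthrc1-negative cells were not filtered on Spp1, Msln or cycling genes. Of the 1805 cells, 389 were at or above the Spp1 limit and 138 had a UMI of a mesothelial marker. Cycling markers summed to 0.735 in them and 0.228 in Spp1-low cells. The comparison is thus not one of Cthrc1 alone, and the part of these other differences was not tested. When levels were scaled by the median ratio of genes instead of total UMIs, 283 were higher and 383 lower. The higher ones included 11 of 16 collagens, with none lower and a median log2 ratio of 0.96. Col1a1, which the gate used, was 90.3 in Spp1-low and 32.4 in Cthrc1-negative cells, and Col11a1 0.643 and 0.0274. Postn was 9.99 and 1.11, an 8.99-fold difference, and Tnn and Thbs2 differed 17.0-fold and 11.6-fold. Acta2, the smooth muscle actin of myofibroblasts, was 21.7 and 9.81. Of 21 BMP and Hedgehog genes measured, 6 were lower and 1 higher, with a median log2 ratio of -0.51, the higher one being the BMP antagonist Grem1 at 0.766 and 0.226. Of 23 contractile genes 7 were higher and 2 lower. Of 21 matricellular and scar matrix genes, 10 were higher and 3 lower, with a median log2 ratio of 0.57. Their summed level was 518 in Spp1-low and 562 in Cthrc1-negative cells. That sum includes Spp1, which the rule limited in Spp1-low cells, at 2.44 and 40.3, so the 2 sums are not a comparison of scar matrix alone.

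Alveolar identity was on the other side: none of 17 genes measured was higher in Spp1-low cells and 15 were lower, with a median log2 ratio of -1.41. Inmt, a methyltransferase of alveolar fibroblasts, was 0.892 and 11.8, Ces1d, a carboxylesterase, 0.0823 and 1.24, and Npnt 0.865 and 3.25. Complement genes were lower in 7 of 11 measured and higher in 1, and chemokines, cytokines and acute phase genes were lower in 12 of 27 and higher in none. Saa3 (serum amyloid A3) was 0.791 and 6.15, although 1 cell held 42.6% of its Spp1-low UMIs, and Lcn2 (lipocalin 2) was 0.132 and 1.57. Mt1, a metallothionein, was 32.3 and 63.8. Adventitial genes were split, with 4 higher and 4 lower of 14. Pi16 was 0.435 in Spp1-low and 0.213 in Cthrc1-negative cells, and Clec3b 1.68 and 2.60.

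Against saline fibroblasts, 389 of 11322 genes measured (3.44%) were higher in Spp1-low cells and 769 (6.79%) lower, with a median log2 ratio of -0.16. Ctla2a was 297-fold, Ptn 153-fold and S100a4, a calcium-binding protein of motile cells, 124-fold higher. Col11a1 was 0.643 in Spp1-low cells and had no UMI in saline fibroblasts, which allows up to 0.00117 per 10,000 there. Postn was 49.2-fold and Fst 35.3-fold higher, and 10 of 16 collagens, 10 of 15 genes of S100 proteins, annexins and galectins and 9 of 23 contractile genes were higher, with 2 contractile genes lower. Of 18 alveolar genes none was higher and 16 were lower, with Inmt at 0.892 in Spp1-low cells and 47.6 in saline fibroblasts. Gsn (gelsolin), an actin-severing protein, was 17.1 and 172. Immediate early genes, which respond to cell handling as well as to growth signals, were lower in 16 of 20 and higher in none, with Fos at 9.52 and 36.4. Epithelial Sftpc (surfactant protein C) was 0.0600 and 7.83 and was found in 3389 of 3567 saline fibroblasts. The part of such free RNA in the other differences was not tested.

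Lepr, the gene that drives Cre, was 0.0281 per 10,000 (0.0188 to 0.0403) in Spp1-low cells and 0.449 (0.424 to 0.476) in saline fibroblasts. After thinning to 5000 UMIs, 1.41% of Spp1-low cells had a Lepr UMI, against 11.1% of endothelial cells and 22.4% of macrophages in the same library, and 17.7% of saline fibroblasts. Spp1-high, Msln-positive and Cthrc1-negative cells had 1.77%, 2.08% and 2.49%. Fewer of these bleomycin fibroblasts than of the other lineages of their library thus had a Lepr UMI.

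Against Msln-positive Cthrc1 fibroblasts (145 cells), 453 of 9211 genes measured (4.92%) were higher in Spp1-low cells and 293 (3.18%) lower, with a median log2 ratio of 0.10 over all genes. Higher were 11 of 21 matricellular and scar matrix genes, with 2 lower, among them Tnc (tenascin C) at 2.65 in Spp1-low and 0.676 in Msln-positive cells. The proteoglycan Fmod (fibromodulin) was 2.37 and 0.498, the growth factor Igf1 3.82 and 0.700, and Mfap4, an elastic fibre protein, 14.3 and 3.34. Lower were 8 of 15 genes of S100 proteins, annexins and galectins, with none higher: S100a4 was 21.3 and 55.9, and Anxa8 0.884 and 4.95. Mmp13, a collagenase, was 0.130 and 0.982, and Igfbp6 was 6.95 and 25.3. Adventitial genes were split here as well, with 5 higher and 5 lower of 14, Pi16 at 0.435 and 0.0139 and Clec3b at 1.68 and 3.08. This group needs only 1 Msln UMI. Of 5 mesothelial markers, Upk3b, Lrrn4 and Krt19 were at 0 in it, and Wt1 was detected besides Msln.

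The Spp1-low cells were not uniform. Over 638 cells that could be thinned to 5000 UMIs, the variance of counts was 1.07 times the mean for the median of 5019 genes, close to the value of 1 that counting error gives. The ratio was 82.4 for Mgp, 71.7 for Ctla2a, 66.0 for Malat1 (a nuclear noncoding RNA) and 41.3 for Eln, and 38.1 for Saa3, 37.7 for Mt1 and 34.5 for Mt2. Actb, Cxcl10 and Gsn followed, at 33.0, 29.9 and 29.0, with predicted genes and genes of the rule left out of this order. Eln ranged between 0 and 601 per 10,000 in single cells with a median of 34.1. Eln and Ctla2a, both proposed markers, were thus among the genes with the highest ratio of variance to mean. The ratio is not adjusted for level, and mean counts differed, at 123 for Mgp, 30.8 for Eln, 6.38 for Ctla2a and 0.332 for Saa3.

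Cthrc1 gave the cells an order, which was drawn after the values were seen. In 4 sets of 162, 161, 162 and 162 cells from low to high Cthrc1, Postn was 4.12, 5.42, 10.5 and 18.3 per 10,000, and Acta2 12.1, 19.7, 21.8 and 31.8. Col1a1 was 68.1, 76.8, 91.7 and 119.6, and Thbs2 0.292, 0.489, 0.587 and 2.27. Eln ran the other way, at 88.3 (87.1 to 89.4), 64.3, 54.8 and 28.2 (27.6 to 28.9). Among the cells chosen for Cthrc1, those with the most of it thus had the most periostin, actin and collagen and the least elastin. Mt1 was 51.0, 41.5, 28.7 and 11.3 and Serpina3m 0.811, 0.694, 0.359 and 0.0748, and Gsn was 31.6 in the first set and 5.97 in the last. Ctla2a was 17.7, 18.2, 11.4 and 2.35, and Ptn kept nearly level at 3.61, 3.85, 4.46 and 4.497. Eln, Serpina3m and Ctla2a, proposed as marks together with Cthrc1, were therefore lowest where Cthrc1 was highest. Median depth in these sets was 15458, 13651, 14704 and 17142 UMIs.

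Across the same 638 thinned cells, Spearman's rho was 0.42 between Cthrc1 and Postn, -0.41 between Cthrc1 and Mt1 and -0.35 between Cthrc1 and Eln. It was 0.86 between Mt1 and Mt2, 0.67 between Acta2 and Tagln (both contractile) and 0.51 between Ly6a and Igfbp6. Tagln and the adventitial Clec3b had -0.39. All cells share 1 library, so these describe that library.

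**Figure D5:**
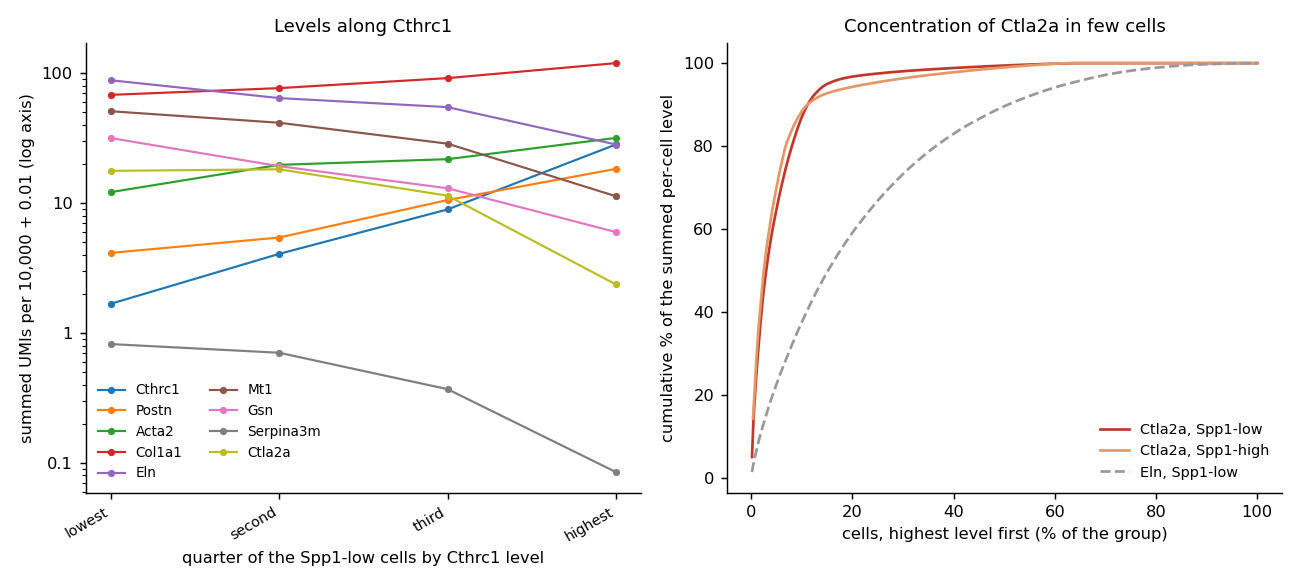
Left, summed level of 9 genes (vertical, UMIs per 10,000 plus 0.01, log axis) in 4 sets of Spp1-low cells by Cthrc1 level (horizontal). Right, cumulative share of the summed per-cell Ctla2a level with cells ordered from the highest, for Spp1-low and Spp1-high cells, and of Eln in Spp1-low cells. Postn and Acta2 climb and Eln, Mt1 and Serpina3m decline with Cthrc1, and Ctla2a lies in few cells whereas Eln does not.

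The 44 Spp1-low cells with a Pi16 UMI, also a division made after the values were seen, formed a further pole. Dcn (decorin, a small proteoglycan, one of the gate genes) was 36.0 per 10,000 in them and 6.55 in the other 603 cells, Clec3b 7.18 and 1.37, and Meg3, an imprinted noncoding RNA, 6.82 and 0.395. Saa3 was 7.60 and 0.408, but a single cell held much of the Spp1-low Saa3, as given above. The Saa3 difference can therefore rest on that cell. Ptn was 0.364 and 4.33, and Acta2 5.23 and 22.6. Cthrc1 was 8.71 and 11.7 and Col1a1 85.3 and 90.6. Ptn and Acta2 were thus lower in the Pi16 cells, at a median depth of 12146 against 15183 UMIs. Another set was the 101 cells with at least 2 UMIs of Pi16 and Clec3b in sum and fewer than 2 of Npnt and Tcf21. Only 44 Spp1-low cells had any Pi16, so most of the 101 carried Clec3b without it. Pi16 was 1.63 in this set and 1.46 in the 75 cells with both pairs, so the set does not hold all Pi16 cells. Ptn was 5.34 in the set, 4.60 with both pairs, 3.49 with Npnt and Tcf21 alone and 4.02 with neither. Acta2 was 11.04, 13.8, 25.2 and 25.4 in the same order.

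Markers of other cell types were low in Spp1-low cells. Endothelial markers summed to 0.0252 per 10,000 with Pecam1 at 0 by the rule, against 28.4 in endothelial cells. Macrophage markers summed to 0.867 with Ptprc at 0 by the rule, against 0.870 in Spp1-high cells and 504 in macrophages. Pericyte markers summed to 0.436 in Spp1-low and 0.560 in Spp1-high cells. Smooth muscle markers summed to 7.80 and 7.39, of which Des was 5.55 and 5.80 and Myh11, the smooth muscle myosin, 0.0358 and 0.0104. Of the smooth muscle markers 1 of 3 measured, Cnn1, passed the rule. Epithelial markers summed to 0.244 in Spp1-low and 0.520 in Spp1-high cells, with Epcam at 0 by the rule; 1 of 2 measured was lower, Sftpc at 0.0600 and 0.312, of which 1 cell held 72.7% in Spp1-high cells. The part of other cell types in the differences was not tested.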

How the data were processed

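Per the labels' protocols, lungs were digested, live tdTomato-positive cells were sorted, and libraries were made with the 10x Genomics 3' v2 kit. Per the submitters' processing notes, the authors used Cell Ranger 2.1.1 and mm10; the deposited values are raw UMI counts per gene and barcode. Depth per library was 61537182 UMIs (bleomycin) and 37570380 (saline) over 28692 genes. From these counts, gates, groups, summed levels per 10,000 UMIs and log2 ratios (0.01 per 10,000 added to both levels) were computed with python 3.11.15, numpy 2.4.6, pandas 2.3.3 and scipy 1.17.1. A gene was measured in a comparison with 50 UMIs in either group. Shares of cells with a UMI were compared after thinning to 5000 UMIs, leaving out shallower cells. Shares by Cthrc1 UMIs and by the pairs Pi16 with Clec3b and Npnt with Tcf21 used all cells at full depth. Members and the 42 gene lists were chosen with earlier results of these data known, and 6 of the 631 listed genes had no row. Named genes were, per comparison, those past the size rule with the greatest log2 ratios (12 in each direction over Spp1-high, 8 over the other groups), list members past the rule or among the 4 highest of their list, the 10 most variable, the markers and a few fixed genes; others named were chosen after their values were seen. Doublets were not removed: Scrublet (scanpy 1.11.5) marked 4 bleomycin and 10 saline barcodes, too few to have worked, so leaving out its highest scores was an alternative. Counting steps were tested on simulated data. The authors' counting could split reads between overlapping genes; strand use is not given in the sources used here.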

Additional observations from a re-analysis of the deposited data

How the results depend on the processing

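No paired analysis was possible because each treatment has 1 library. Redrawing the gate gave 543 to 954 Spp1-low cells in place of 647. At a 2-fold difference, 52 genes were higher and 47 lower over Spp1-high cells, 167 and 94 over Msln-positive, and 92 and 196 over Cthrc1-negative cells; at 1.5-fold, 914 and 1391 over saline. Thinned to 5000 UMIs, 235 were higher over Spp1-high, and 735 higher and 164 lower over Msln-positive cells, with 5846 and 5842 genes measured; 109 of the 235, 378 of the 735 and 141 of the 164 were calls at full depth, and the cause was not tested. Of the named genes past the rule, 73 of 99 over Spp1-high passed it under each of the 7 alternatives run on single genes, all at the same fold, 126 of 177 over Msln-positive, 180 of 215 over Cthrc1-negative and 243 of 263 over saline. Log2 ratios turned round for Cxcl10 (0.73) and Sftpc (0.61) over Spp1-high with the Spp1 limit at 20, for Inmt over Spp1-high with a mean over cells (0.59), for Cnn1 over Cthrc1-negative with a mean over cells (-0.70) or thinned (-0.82), and for Irf7 over Msln-positive when thinned (0.58); the cause was not tested. Shares of Spp1-low cells with a UMI moved with depth: thinned to 2000 and unthinned, they were 87.0% and 99.1% for Eln, 41.6% and 70.0% for Ptn, 7.73% and 30.4% for Serpina3m, 26.7% and 64.5% for Ctla2a, and 0.155% and 3.40% for Lepr.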
